A study of Gallus gallus with 6 samples.

Results

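Transcripts of the splicing factors and the heterogeneous nuclear ribonucleoproteins (hnRNPs) were examined in primary lens cells of the chick, Gallus gallus, with and without dimethyloxalylglycine (DMOG). The members were taken by name: every row of the expression table in which a gene name begins with SRSF or SF3A or SF3B and a digit, with HNRNP, with SNRP, or with U2AF and a digit. This gave 42 loci of the 17340 in the table, which carry 43 such genes because HNRNPD and HNRNPDL share a locus. The families comprised 10 SRSF loci, 13 HNRNP loci, 8 SF3A and SF3B loci, 10 SNRP loci and 1 U2AF locus.

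The cells came from lenses of White Leghorn chick embryos at day E10 and were grown on laminin with serum. DMOG blocks the prolyl hydroxylases that mark HIF1α for degradation, so HIF1α protein is stabilized. In one group, 3 libraries of total RNA were made from cells given 1 mM DMOG for 4 h, and in the other, 3 libraries were made from untreated cells of the same kind with no other difference in the labels. No gene was altered in either group, so the comparison rests on an inhibitor that acts on other dioxygenases as well as on those of HIF1α.

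Introns are removed by the spliceosome, which is assembled on each transcript from small nuclear ribonucleoproteins (snRNPs) and many further proteins. SR proteins, encoded by SRSF genes, bind exons and favor the use of nearby splice sites, whereas hnRNPs coat the new transcript and often repress splice sites. U2AF1 and the SF3A and SF3B complexes select the end of the intron and the branch site. The relative amounts of SR proteins and hnRNPs are known to influence which exons are kept, and many SR genes of mammals control their own transcript level through an exon that leads to decay.

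Abundance was given in FPKM, a count of fragments scaled by transcript length and by the size of the library, so that it can be compared between genes. Values are the mean ± SD over 3 libraries unless single libraries are given. The conditions were compared with limma on log2(FPKM + 0.5), a scale that understates the change of low genes. Loci were tested where their 6 libraries averaged 1 FPKM or more, which left 9816, and Benjamini-Hochberg adjustment was made over this whole set. The study's limits were also applied, which ask for an unadjusted p under 0.05 and a fold change, up or down, that reaches 0.6 on the log2 scale. These values measure RNA per locus only. They do not show which exons were joined, how much protein was made, or whether fewer cells of a type or less RNA per cell lies behind a lower value.

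Library totals ranged from 169975 to 212100 FPKM, and small RNA loci took from 24.0% to 37.4% of them. The highest of these shares, and the largest share of loci listed at 0 (35.9%), were those of DMOG library 3, which also gave the lowest value of the 6 libraries at 31.1% of tested loci. DMOG library 2 came next in both shares, at 33.3% and 33.0%, and DMOG library 1 had 24.8% and 29.4%. The untreated libraries had 24.0% to 28.7% and 25.2% to 30.5%. Targets of HIF1α served as a check of the labels. Of 8 such genes, 7 were higher with DMOG by the study's limits, and 3 had an adjusted p under 0.05 (limma). The gene that was not higher, PDK1, was at 21.43, 9.7 and 16.51 FPKM with DMOG and 19.18, 22.25 and 18.5 FPKM without it. The prolyl hydroxylase gene EGLN3 stood at 57.15, 54.04 and 47.61 FPKM with DMOG and at 1.35, 2.06 and 1.87 FPKM without it. The lens crystallin gene CRYAA was at 599 FPKM or more in every library. Not all lens genes were high. The crystallin gene CRYBB1 ran from 1.43 to 4.2 FPKM. MIP reached 3.51 FPKM and was listed at 0 in DMOG library 3 and untreated library 1. CRYBA4 was at 0.09 FPKM in DMOG library 1 and listed at 0 in the others. The list of 22 lens genes gave 19 loci, of which 16 were tested. The summed level of the 16 ran from 1367 to 2130 FPKM with DMOG and from 1429 to 2344 FPKM without it, most of it from crystallins. Of the 16, SOX2, a transcription factor gene of the early lens, was lower by the study's limits. It was listed at 0 in DMOG library 1, stood at 1.5 and 1.23 FPKM in DMOG libraries 2 and 3 and at 7.32, 2.97 and 2.37 FPKM without DMOG (limma, unadjusted p = 0.0230, adjusted p = 0.46). Markers of other cell types were mixed. Hemoglobin genes were listed at 0 in all libraries. The spliceosome gene BCAS2 was also listed at 0 in DMOG libraries 2 and 3, and was at 1.07 to 6.87 FPKM in the others. Whether an exact 0 stands for an absent transcript was not tested. The erythroid genes ALAS2 and EPB42 were at 5.62 to 12.91 FPKM, with means of 10.8 and 7.04 FPKM over the 6 libraries that lie above the median of the tested loci. These were the only 2 of 9 erythroid loci that were tested. TAL1 was listed at 0 in all libraries, and SLC4A1 in all but DMOG library 2, where it was at 0.52 FPKM. Over all listed erythroid loci the sums were 14.98 to 19.26 FPKM with DMOG and 15.63 to 20.38 FPKM without it. Mesenchymal loci summed to 3.71 to 11.03 FPKM with DMOG and 7.94 to 14.66 FPKM without it. Over the 6 libraries PDGFRA ran from 2.2 to 6.4 FPKM, the COL3A1 locus from 1.3 to 2.78 FPKM and ACTA2 from 0.15 to 4.19 FPKM. TWIST1, PRRX1 and LUM were listed at 0. Retinal and pigment loci summed to 1.28 to 5.12 FPKM with DMOG and 1.10 to 2.64 FPKM without it, with PMEL listed at 0. RPE65, the only tested locus of that list, was at 3.98, 4.12 and 1.03 FPKM with DMOG. Without DMOG it was at 1.1, 2.28 and 1.57 FPKM. The part of these markers in the results was not tested.

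All 42 loci were transcribed, with a value above 0 in every library and a mean of at least 1 FPKM, and 38 of them lay above the median level of the tested loci, which was 5.94 FPKM. The median member stood at 16.5 FPKM. SRSF1 was the highest, at 86.5 FPKM over the 6 libraries, followed by SF3B1 at 74.4 FPKM and HNRNPH2 at 62.0 FPKM. The lowest, close to the filter of 1 FPKM, was SNRPG, whose values ran from 1.23 to 2.32 FPKM. In sum the members held 927, 978 and 980 FPKM in the DMOG libraries and 925, 998 and 1055 FPKM in the untreated libraries. The group sums overlapped, at 961 ± 29.9 FPKM with DMOG and 993 ± 65.2 FPKM without it. The members' share of all FPKM ran from 0.461% to 0.490% with DMOG and reached 0.587% without it. On this scale the groups did not overlap, since the lowest untreated library lay above the highest DMOG library. Small RNA loci enter the total by which that share is divided. They took 24.8%, 33.3% and 37.4% of it in DMOG libraries 1 to 3 and 28.7%, 24.0% and 26.7% in untreated libraries 1 to 3. Their part in the separation of the groups was not tested.

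**Figure D1:**
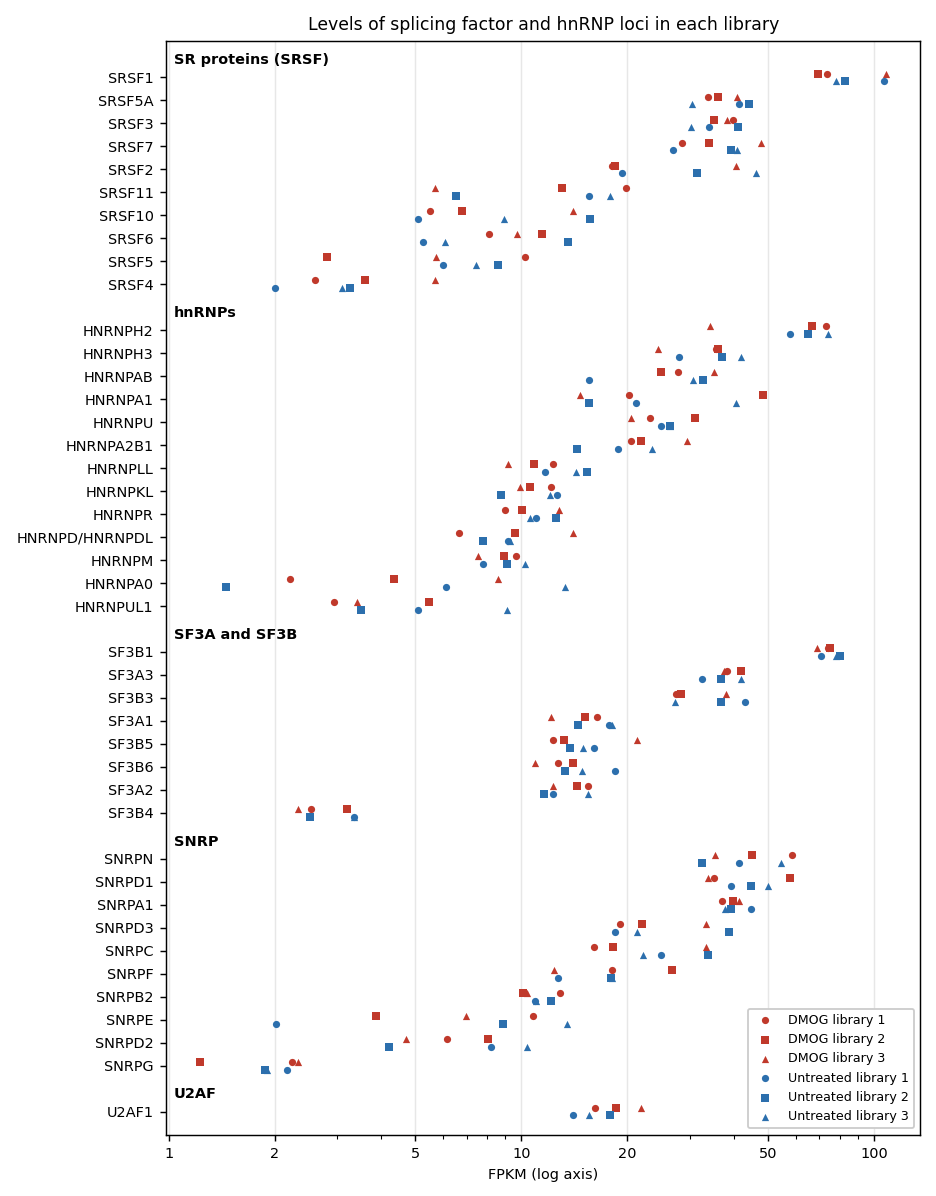
Level of each of the 42 loci in each of the 6 libraries, in FPKM on a log axis, grouped by family and ordered by mean level (red, DMOG; blue, untreated; symbols, library number). The red and blue symbols overlap at every locus, and levels run from 1.23 FPKM for SNRPG in a DMOG library to 108.36 FPKM for SRSF1.

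No member changed with DMOG by the tests used. None was higher by the study's limits, against 279 of the 9816 tested loci (2.84%), and none was lower, against 488 (4.97%). At an adjusted p under 0.05, 0 of 42 members were called, against 19 tested loci (0.194%). At an unadjusted p under 0.05 the count was also 0, where 883 tested loci (9.00%) passed. The smallest p among the members was that of HNRNPLL, at 0.137 unadjusted and 0.664 adjusted (limma). In no member did every DMOG library lie above every untreated library, which 439 loci (4.47%) did, or below, which 1121 loci (11.4%) did. For groups of 3 and 3, an exact two-sided permutation test of a single locus cannot give a p below 0.10.

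Differences were small as well as uncalled. The median log2 fold change of the members was -0.06 and that of all tested loci -0.13, and 28 members lay above the latter value. Scaling the libraries to 1 median, which by construction sets the median of all loci near 0 (-0.01), moved the median of the members to 0.07. Quantile normalization gave a median of -0.020 for the members and -0.022 for all tested loci, so the difference between these medians depended on the normalization. With median scaling the loci past the limits were 418 higher and 317 lower, in place of 279 and 488. With quantile normalization they were 410 higher and 320 lower. Members past the limits were 0 under both. The median size of the log2 fold change, without its sign, was 0.13 for the members and 0.28 for all tested loci. Because a level below 5 FPKM carries more noise, the same was computed above that level, where it was 0.12 for 38 members and 0.24 for 5539 loci. This cut did not match the levels, since the median was 19.5 FPKM for these members and 10.6 FPKM for these loci. In the fit without either normalization, family medians were also set against the median of all tested loci. The differences were 0.06 for the SR proteins, 0.05 for the hnRNPs, 0.01 for SF3A and SF3B, and 0.09 for the SNRP loci.

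**Figure D2:**
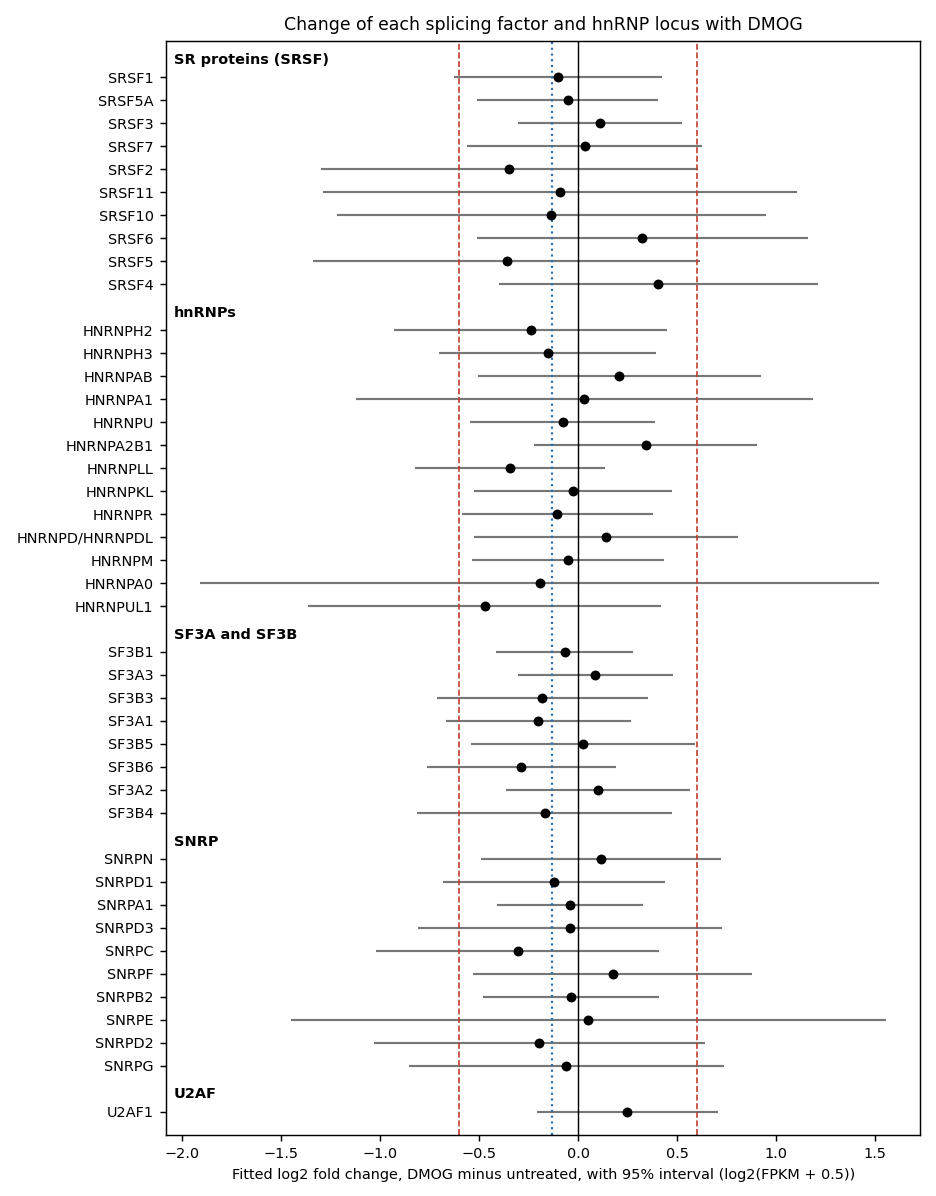
Fitted log2 fold change (DMOG minus untreated, on log2(FPKM + 0.5)) of each locus with its 95% interval. The red dashed lines mark the limit of 0.6 in either direction, and the blue dotted line marks the median of all tested loci, -0.13. All 42 points lie between -0.47 and 0.41 and every interval crosses 0.

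The sizes of change that the data leave possible are given by the interval of each difference. The 95% interval of the log2 fold change lay wholly between -1 and 1, which is within 2-fold, for 30 of the 42 members (71.4%), against 42.9% of all tested loci. It lay within the study's limit of 0.6 for 12 members (28.6%), against 8.81% of all tested loci. Above 5 FPKM, where the members still had the higher median level, the shares within 2-fold were 73.7% for members and 60.6% for all loci. By family, the interval was within 2-fold for 8 of 8 SF3A and SF3B loci, 10 of 13 hnRNPs, 7 of 10 SNRP loci, 4 of 10 SR proteins and the U2AF1 locus. For the other 12 members a change of 2-fold in at least 1 direction remained inside the interval.

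SR proteins had the largest median SD between replicates of the families, 0.47 on the log2 scale, although the single largest SD and the widest range of fold changes were those of the hnRNPs. Their highest member was SRSF1, the founding member of the family, which held 31.9% of the FPKM of the 10 SRSF loci with DMOG and 32.7% without it. Its values were 73.58, 69.55 and 108.36 FPKM in DMOG libraries 1 to 3 and 106.67, 82.82 and 77.86 FPKM in untreated libraries 1 to 3. Each group thus contained 1 library above 100 FPKM, and the groups overlapped. The log2 fold change of SRSF1 was -0.10 (SE 0.23, 95% interval -0.63 to 0.42).

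Among the SR proteins, the lowest fitted change was that of SRSF5, at 10.26, 2.81 and 5.71 FPKM with DMOG and 5.99, 8.60 and 7.42 FPKM without it. The highest and the lowest of the 6 libraries were both DMOG libraries, and the log2 fold change was -0.36 (limma, adjusted p = 0.82, SE 0.42). SRSF2, which binds exonic enhancers as SRSF1 does, was at 18.07, 18.40 and 40.57 FPKM with DMOG and 19.27, 31.58 and 46.25 FPKM without it. DMOG libraries 1 and 2 and untreated library 1 lay together near the low end. SRSF2 had a log2 fold change of -0.35 (95% interval -1.30 to 0.61).

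The largest positive values belonged to SRSF4 and SRSF6, which are close relatives of SRSF5 with a pair of RNA recognition motifs. SRSF4 was at 2.60, 3.61 and 5.68 FPKM with DMOG and 2.0, 3.26 and 3.10 FPKM without it. DMOG library 3 stood above the other 5 libraries, and DMOG library 1 lay within the untreated range. Its log2 fold change was 0.41 (limma, adjusted p = 0.76, SE 0.34). SRSF6 was at 8.08, 11.44 and 9.75 FPKM with DMOG and 5.25, 13.61 and 6.09 FPKM without it. All DMOG libraries lay between untreated library 2 and the other untreated libraries. SRSF6 had a log2 fold change of 0.32 (95% interval -0.51 to 1.16). Without untreated library 2 it was 0.72, which passed the study's limits with an unadjusted p of 0.0299, so this library decides whether SRSF6 was called. That locus carries a second, unnamed Ensembl gene, and the value cannot be divided between the genes.

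For the other SR proteins the values over the 6 libraries ran from 30.56 to 44.30 FPKM for SRSF5A, from 30.21 to 41.27 FPKM for SRSF3, from 26.97 to 47.74 FPKM for SRSF7, from 5.70 to 19.87 FPKM for SRSF11, and from 5.09 to 15.65 FPKM for SRSF10. SRSF3, the smallest SR protein, also acts in mRNA export, and SRSF10 represses splicing when it is dephosphorylated, as known from mammals. SRSF3 and SRSF5A had intervals within the limit of 0.6. By name, SRSF5 and SRSF5A are related copies in chick, as are SRSF7 and SRSF7L, of which the second is not among the 42 loci. Whether reads were shared between such copies was not tested, and these values are uncertain to that extent.

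In the hnRNP family the highest locus was HNRNPH2, which RefSeq gives as a synonym of HNRNPH1 in chick. Proteins of this type bind runs of G in RNA. HNRNPH2 was at 73.36, 66.95 and 34.35 FPKM with DMOG and 58.02, 65.02 and 74.03 FPKM without it. DMOG library 3 was the lowest of the 6, and the other DMOG libraries lay within the untreated range. For HNRNPH2 the fold change was, on the log2 scale, -0.24 (SE 0.30, 95% interval -0.93 to 0.45). Without DMOG library 3 it was 0.10, so the sign of this value rests on that library.

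The most negative values of the family were those of HNRNPUL1 and HNRNPLL. HNRNPUL1, a relative of the nuclear scaffold protein HNRNPU, was at 2.95, 5.46 and 3.43 FPKM with DMOG and 5.10, 3.51 and 9.10 FPKM without it. Untreated library 3 was the highest, and the other 5 libraries were mixed between the groups. Its log2 fold change, -0.47, was the most negative of the 42 members but moved to -0.13 without untreated library 3 and to -0.76 without untreated library 2 (limma, adjusted p = 0.75, SE 0.38). HNRNPLL, known in mammals for skipping exons of CD45 in lymphocytes, was at 12.26, 10.85 and 9.18 FPKM with DMOG and 11.66, 15.36 and 14.33 FPKM without it. Only DMOG library 1 and untreated library 1 crossed, at 12.26 and 11.66 FPKM. The log2 fold change was -0.34 (95% interval -0.82 to 0.14). It stayed negative with each library left out, with median scaling and with quantile normalization.

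The largest positive hnRNP values were those of HNRNPA2B1 and HNRNPAB. HNRNPA2B1, which binds transcripts in splicing and in RNA transport, was at 20.47, 21.89 and 29.43 FPKM with DMOG and 18.86, 14.36 and 23.51 FPKM without it. Untreated library 3 was higher than 2 of the DMOG libraries. HNRNPA2B1 had a log2 fold change of 0.34 (limma, adjusted p = 0.72, SE 0.24). HNRNPAB was at 27.77, 24.89 and 35.15 FPKM with DMOG and 15.54, 32.82 and 30.62 FPKM without it. Untreated library 1 stood below the other 5, which were mixed. Its log2 fold change was 0.21 (95% interval -0.51 to 0.92), and without untreated library 1 it was -0.13.

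Of the remaining hnRNPs, HNRNPH3 ran from 24.35 to 41.99 FPKM over the 6 libraries, HNRNPU from 20.43 to 31.13 FPKM, HNRNPR from 8.98 to 12.75 FPKM and HNRNPM from 7.54 to 10.24 FPKM. The last locus also carries TIMM44, a mitochondrial import gene. HNRNPKL, which RefSeq lists beside a separate HNRNPK gene, ran from 8.78 to 12.64 FPKM, and whether fragments were shared between these copies was not tested. The HNRNPD and HNRNPDL locus ran from 6.64 to 14.06 FPKM. HNRNPD, also called AUF1, binds AU-rich elements and promotes mRNA decay. Intervals of HNRNPU, HNRNPKL, HNRNPR and HNRNPM lay within the limit of 0.6.

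SF3A and SF3B are parts of the U2 snRNP, and they showed the least spread between replicates of the families with more than 1 locus, with a median SD of 0.20 on the log2 scale. SF3B1, the largest SF3B subunit, clamps the branch site of the intron. It was at 73.96, 75.16 and 68.77 FPKM with DMOG and 70.65, 80.07 and 77.90 FPKM without it. All 6 libraries lay within 1.16-fold of each other, and the groups overlapped. For SF3B1 the log2 fold change was -0.07 (SE 0.15, 95% interval -0.41 to 0.28). Its SD between replicates on the log2 scale, 0.08, was the smallest of the members.

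SF3B6, the subunit known to contact the branch point adenosine, had the most negative value of these complexes. It was at 12.74, 14.06 and 10.94 FPKM with DMOG and 18.40, 13.34 and 14.83 FPKM without it. DMOG library 2 lay above untreated library 2, so the groups overlapped by that pair. The log2 fold change was -0.29 (limma, adjusted p = 0.72, SE 0.20). It stayed negative with each library left out, with median scaling and with quantile normalization. SF3A1 was at 16.41, 15.20 and 12.11 FPKM with DMOG and 17.68, 14.50 and 18.12 FPKM without it. Here untreated library 2 lay among the DMOG libraries. SF3A1 had a log2 fold change of -0.20 (95% interval -0.67 to 0.27), for a locus that also carries RNF215.

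SF3A2 and SF3A3, the other SF3A subunits, gave the largest values in the positive direction. SF3A2 was at 15.47, 14.38 and 12.30 FPKM with DMOG and 12.34, 11.59 and 15.43 FPKM without it. The highest DMOG and the highest untreated library were nearly equal. Its log2 fold change was 0.10 (95% interval -0.37 to 0.57). SF3A3 was at 38.33, 41.96 and 37.49 FPKM with DMOG and 32.56, 36.75 and 41.87 FPKM without it. The DMOG range began within the untreated range and the highest values of the groups were nearly equal. For SF3A3 the log2 fold change was 0.09 (95% interval -0.30 to 0.48), which excludes the study's limit in both directions.

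The remaining SF3B loci among the members ran from 27.23 to 43.00 FPKM for SF3B3, from 12.30 to 21.26 FPKM for SF3B5 and from 2.32 to 3.36 FPKM for SF3B4. The SF3B3 locus also carries an Rfam RNA and the SF3B4 locus carries MTMR11. Transcripts of subunits that are assembled into 1 complex were not at 1 level. Among the 3 SF3A subunits the highest untreated mean was 2.82 times the lowest (13.1 and 37.1 FPKM), and with DMOG the ratio was 2.79. The name rule gave 5 SF3B subunits, which need not be the whole complex. Their means ran from 3.08 to 76.2 FPKM without DMOG, a ratio of 24.8. With DMOG they ran from 2.68 to 72.6 FPKM, a ratio of 27.1, and the lowest was the joined SF3B4 locus in both groups.

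The SNRP loci encode proteins of the snRNPs, of which 7 form the Sm ring around the small nuclear RNA. The untreated means of the ring subunits ran from 1.98 FPKM for SNRPG to 44.7 FPKM for SNRPD1, a ratio of 22.6. With DMOG the lowest was SNRPG at 1.93 FPKM and the highest SNRPN at 46.3 FPKM, a ratio of 24.0. The SNRPG locus also carries an unnamed Ensembl gene, and RefSeq gives SNRPG only as a synonym of SNRPGP15. Without that locus the lowest ring subunit was SNRPD2, and the ratios were 5.88 without DMOG and 7.34 with it. SNRPN takes the place of the B subunit, and RefSeq lists SNRPB as a synonym of this chick gene. It was at 58.41, 45.20 and 35.41 FPKM with DMOG and 41.51, 32.46 and 54.42 FPKM without it. Libraries of the groups alternated along this range. SNRPN had a log2 fold change of 0.12 (SE 0.26, 95% interval -0.49 to 0.72), and it changed sign without DMOG library 1 (-0.06) or untreated library 2 (-0.07).

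SNRPF, another ring subunit, had the most positive value of the family. It was at 18.04, 26.71 and 12.41 FPKM with DMOG and 12.69, 17.91 and 18.14 FPKM without it. DMOG library 2 was the highest and DMOG library 3 the lowest of the 6. Its log2 fold change was 0.17 (95% interval -0.53 to 0.88), and without DMOG library 2 it was -0.10. SNRPD2 was at 6.15, 8.06 and 4.72 FPKM with DMOG and 8.20, 4.21 and 10.41 FPKM without it. Both the highest and the lowest library were untreated. For SNRPD2 the log2 fold change was -0.20 (95% interval -1.03 to 0.64), for a locus with a second, unnamed Ensembl gene, and it was 0.06 without untreated library 3.

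SNRPC, a U1 snRNP protein that helps hold the start of the intron, had the most negative value among the SNRP loci. It was at 16.08, 18.26 and 33.36 FPKM with DMOG and 24.94, 33.88 and 22.21 FPKM without it. DMOG library 3 lay beside the highest untreated library, and the other DMOG libraries lay below all untreated ones. SNRPC had a log2 fold change of -0.31 (limma, adjusted p = 0.80, SE 0.31). Without DMOG library 3 it was -0.62 with an unadjusted p of 0.0360 (limma). SNRPC then passed the study's limits as the only member, and no member had an adjusted p under 0.05 in that fit.

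The other ring subunits ran from 33.81 to 57.72 FPKM for SNRPD1, from 18.44 to 38.86 FPKM for SNRPD3 and from 2.02 to 13.45 FPKM for SNRPE. The U2 snRNP proteins SNRPA1 and SNRPB2, which bind each other on the U2 RNA, were steady, at 37.11 to 44.84 FPKM and 10.13 to 12.88 FPKM, and both had intervals within the limit of 0.6. The SNRPA1 locus also carries the selenoprotein gene SELENOS.

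U2AF1 recognizes the AG at the end of the intron, and its locus carries further unnamed Ensembl genes. It was at 16.20, 18.62 and 21.89 FPKM with DMOG and 13.99, 17.81 and 15.54 FPKM without it. Untreated library 2 lay above DMOG library 1, and otherwise the DMOG values were the higher. The log2 fold change of U2AF1 was 0.25 (SE 0.20, 95% interval -0.21 to 0.71, adjusted p = 0.74 in limma).

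At most members the SD between replicates on the log2 scale exceeded the size of the log2 fold change. The loci given here were chosen after their values were seen. HNRNPA0 was at 2.20, 4.34 and 8.57 FPKM with DMOG and 6.11, 1.45 and 13.28 FPKM without it, a 9.16-fold range over the 6 libraries. SNRPE was at 10.77, 3.88 and 6.95 FPKM with DMOG and 2.02, 8.89 and 13.45 FPKM without it, a 6.66-fold range. HNRNPA1, a repressor of exon inclusion, was at 20.19, 48.41 and 14.63 FPKM with DMOG and 21.10, 15.60 and 40.73 FPKM without it. In each group 1 library stood far above the others.

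SRSF10 and SRSF11 differed between libraries in opposite ways. SRSF10 was at 5.52, 6.81 and 14.06 FPKM with DMOG and 5.09, 15.65 and 8.92 FPKM without it. SRSF11 was at 19.87, 13.06 and 5.70 FPKM with DMOG and 15.53, 6.52 and 17.86 FPKM without it. DMOG library 3 and untreated library 2 thus had the highest values of SRSF10 and the lowest of SRSF11. The same pair of libraries had the highest values of SNRPC and SNRPD3. SNRPD3 was at 19.07, 22.04 and 33.36 FPKM with DMOG and 18.44, 38.86 and 21.35 FPKM without it. These loci were picked for this pattern, and no test was made of it.

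**Figure D3:**
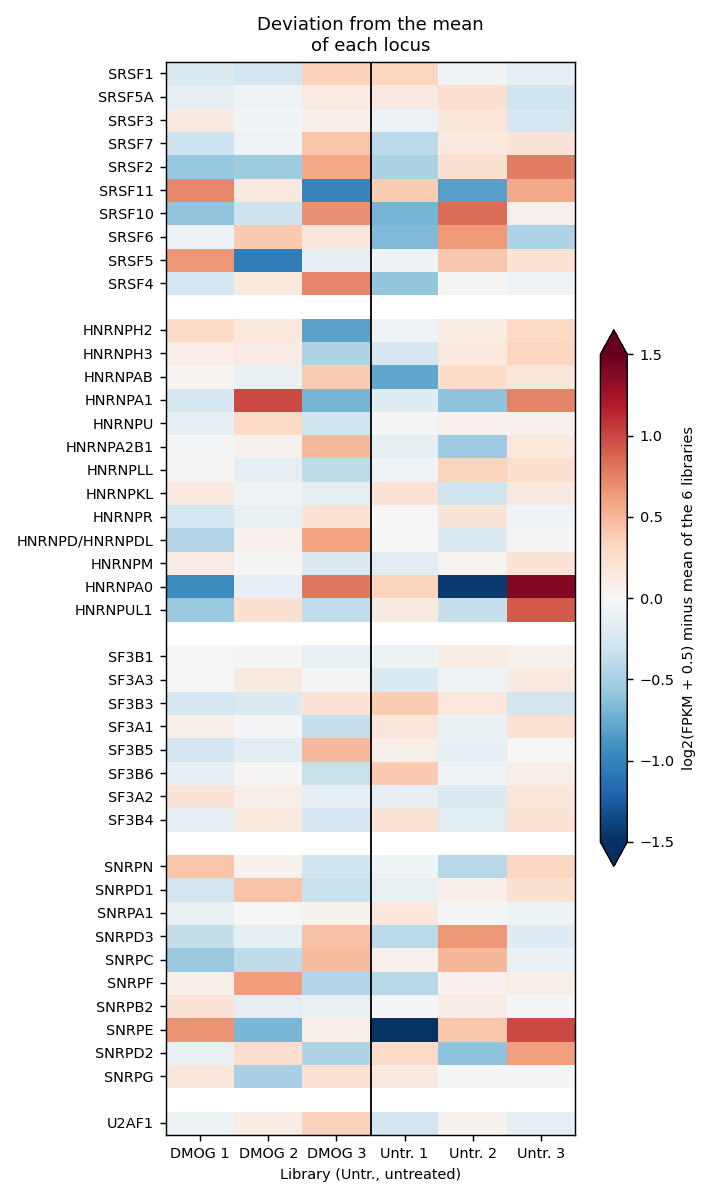
Deviation of each library from the mean of the 6 libraries at each locus, on log2(FPKM + 0.5), with the DMOG libraries left and the untreated libraries right of the black line (red, above the mean; blue, below; the ends of the scale are at 1.5 in either direction). In no row do all libraries of one condition lie above all of the other, and the strongest colors lie in single libraries of HNRNPA0, SNRPE, HNRNPA1 and SRSF5.

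Over the members, the median SD between replicates on the log2 scale was 0.31, against 0.39 over all tested loci, and 26 members lay below the latter. Among loci of at least 5 FPKM the medians were 0.31 for members and 0.32 for all. By family the median was 0.47 for the SR proteins, 0.31 for the hnRNPs, 0.20 for SF3A and SF3B and 0.40 for the SNRP loci. The highest library exceeded the lowest by more than 3-fold at 7 members and by less than 1.5-fold at 12. DMOG library 3 gave the lowest value at 13 members, and untreated library 3 gave the highest at 9 and the lowest at 3. Over all tested loci these libraries had the corresponding place at 31.1%, 24.1% and 6.74%, close to the members' counts. Other places differed more. DMOG library 3 gave the highest value at 10 members, against 12.1% of all tested loci. DMOG library 2 gave the lowest at 4 members, against 23.7%, and untreated library 1 gave the lowest at 9, against 13.4%. These differences were not tested.

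**Figure D4:**
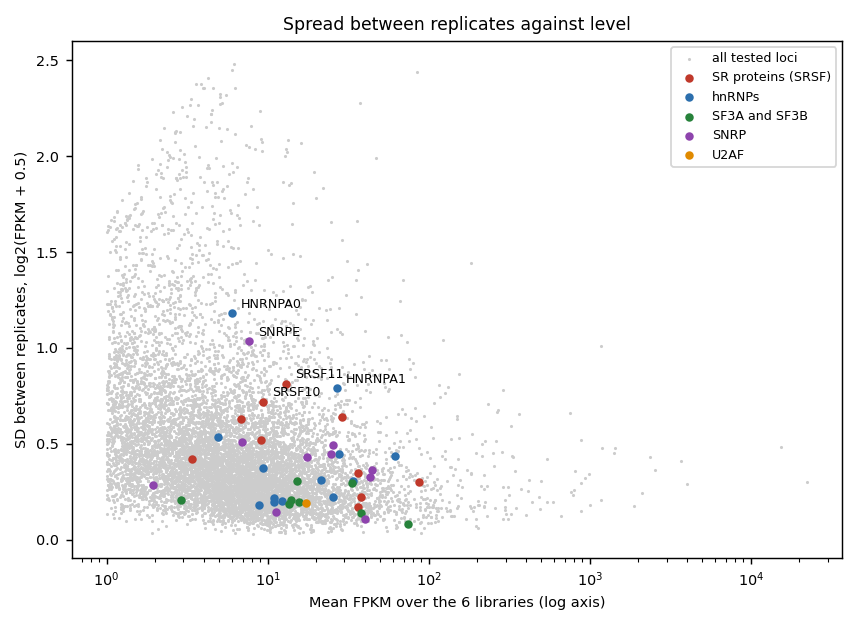
SD between replicates on log2(FPKM + 0.5) against the mean FPKM of the 6 libraries (log axis), for all 9816 tested loci (gray) and the 42 members (colored by family). Members lie between 0.08 for SF3B1 and 1.18 for HNRNPA0, and the 5 with the largest spread are named.

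The family sums moved between libraries in part in opposite ways. SRSF loci summed to 240, 231 and 317 FPKM with DMOG and 262, 287 and 269 FPKM without it, so that DMOG library 3 was the highest. For the hnRNPs the sums were 255, 289 and 224 FPKM with DMOG and 230, 250 and 316 FPKM without it, and DMOG library 3 was the lowest. SF3A and SF3B loci gave 199, 206 and 203 FPKM with DMOG and 214, 209 and 214 FPKM without it. In this family alone the sums did not overlap, with means of 203 ± 3.22 and 212 ± 2.60 FPKM. The sum was chosen after its values were seen and was not tested, and it is led by SF3B1, which held 35.8% of it with DMOG and 35.9% without it. SNRP loci summed to 216, 233 and 214 FPKM with DMOG and 205, 234 and 241 FPKM without it.

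Other genes of splicing were examined in 3 lists. SR-related regulators and the kinases that phosphorylate SR proteins comprised 18 tested loci, of which 1 was higher and 0 lower by the study's limits, with a median log2 fold change of -0.12. The higher one was CLK2, an SR protein kinase, at 4.44, 7.36 and 8.44 FPKM with DMOG and 3.14, 4.35 and 3.64 FPKM without it. Its groups did not overlap, and the log2 fold change was 0.75 (limma, adjusted p = 0.52, SE 0.29). CLK1 went the other way without passing the limits, at 10.29, 3.81 and 3.89 FPKM with DMOG and 11.73, 14.68 and 7.24 FPKM without it. Its log2 fold change was -0.94 (limma, unadjusted p = 0.0596). Of the 18 loci, 3 had a positive fold change and 15 a negative one.

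Further proteins of the spliceosome core comprised 63 tested loci, with 1 higher, 2 lower and a median of -0.13. LSM5, a subunit of the ring on U6 RNA and of the ring that acts in mRNA decay, was at 12.07, 10.01 and 11.08 FPKM with DMOG and 6.33, 6.51 and 7.21 FPKM without it. The groups were well apart, with a log2 fold change of 0.68 (limma, adjusted p = 0.35, SE 0.19). LSM1, which belongs to the decay ring, was at 2.12 and 0.41 FPKM in DMOG libraries 1 and 3, was listed at 0 in DMOG library 2, and was at 1.94, 2.41 and 7.0 FPKM without DMOG, so its groups overlapped. SNRNP27, a protein of the tri-snRNP, was at 4.13, 6.09 and 2.83 FPKM with DMOG and 8.64, 6.08 and 7.57 FPKM without it. The highest DMOG and the lowest untreated library of SNRNP27 were nearly equal, and its log2 fold change was -0.75.

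Other regulators that bind RNA comprised 40 tested loci, with 1 higher, 3 lower and a median of -0.20. SFPQ, a protein of the paraspeckle, was at 19.72, 14.95 and 10.60 FPKM with DMOG and 5.64, 6.54 and 10.98 FPKM without it, a log2 fold change of 0.93 (limma, adjusted p = 0.46, SE 0.32). DAZAP1 was at 5.54, 3.22 and 6.96 FPKM with DMOG and 11.51, 10.86 and 7.32 FPKM without it, with a log2 fold change of -0.89. PTBP3, a relative of the polypyrimidine tract protein, was at 4.57, 3.45 and 4.51 FPKM with DMOG and 6.67, 9.53 and 6.46 FPKM without it, with a log2 fold change of -0.77. PTBP1 was not past the limits, at 15.08, 23.79 and 5.52 FPKM with DMOG and 28.55, 30.34 and 21.71 FPKM without it. Its log2 fold change was -1.04 (limma, unadjusted p = 0.0608), and its groups overlapped. PCBP4 was low throughout, at 0.55 FPKM in DMOG library 1, listed at 0 in the other DMOG libraries, and at 1.70, 1.68 and 2.11 FPKM without DMOG. These counts stand beside shares of 2.84% higher and 4.97% lower among all tested loci. In the 3 lists, no locus had an adjusted p under 0.05.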

How the data were processed

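Total RNA of 3 DMOG-treated and 3 untreated samples of chick lens cells was sequenced as stranded, paired-end libraries. The methods call them biological triplicates, and the labels do not say whether they came from separate cultures or pools of embryos. The p-values set each difference between groups against the spread between these samples only. The authors used Cutadapt for trimming, Bowtie2 and HISAT2 for mapping to galGal6 (Ensembl release 96), StringTie and gffcompare for assembly and edgeR for levels, with versions not given in the sources used here. They deposited FPKM per locus and library, rounded to 2 decimals, and a locus can join several genes, as 10 member loci do. The deposited ratio, its log2 value and p-value hold the authors' own comparison and were not used.

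Loci averaging 1 FPKM or more entered the fit, made in R 4.3.3 with limma 3.58.1 on log2(FPKM + 0.5) with treatment as the only term and a mean-variance trend. The study's count model needs counts, so limma took its place. The fit was tested on simulated data. Tables and plots used pandas 2.3.3, numpy 2.4.6 and matplotlib 3.10.9 under Python 3.11.15. Read depth is unknown. In ratios of low FPKM between libraries the fullest bin held 1.44 to 2.31 times as many loci as its neighbours (19 to 32 loci). No unit of 1 read was recovered from these ratios. Precision is given by the replicates, with the variance of each locus moderated by limma toward the trend over all tested loci. Of 43 member gene names, 40 were RefSeq symbols (GRCg7b), 2 were synonyms and 1 was not matched. Sequences and coordinates were not used here.

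Values in every library are given for the highest member of each family, for the 2 largest and 2 smallest fold changes of each family of at least 5 loci, and for any member past the limits or with an unadjusted p under 0.05 (20 members). In the other lists the loci past the limits are named, and CLK1 and PTBP1 were added after their values were seen. Members, gene lists and rules were chosen with earlier results of these data known. The alternatives were pseudocounts of 0.1 and 1, a filter at 5 FPKM or none, quantile normalization, median scaling, rescaling without small RNA loci, replicate number as a block, no mean-variance trend, no joined loci, and leaving out each library.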

Additional observations from a re-analysis of the deposited data

How the results depend on the processing

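The count of members past the limits was 0 in 14 of 16 alternatives. It was 1 without DMOG library 3 (SNRPC, lower) and 1 without untreated library 2 (SRSF6, higher), so these counts ranged from 0 to 1 when single libraries were left out. A filter at 5 FPKM or none, the replicate block, no mean-variance trend and no joined loci leave each fold change as in the main fit. There all members lay between -0.47 and 0.41, inside the limit of 0.6, so a count of 0 was fixed in these alternatives. The filter at 5 FPKM also left 38 members, and dropping joined loci left 32. In none of the 16 alternatives did a member have an adjusted p under 0.05 (limma). Over all tested loci the counts with libraries left out ranged from 216 to 407 higher and from 328 to 768 lower, and the largest number of lower loci was found without DMOG library 1. With a mean of at least 5 FPKM they were 183 and 231, and the lower loci were 317 with median scaling and 320 with quantile normalization. The median log2 fold change of SF3A and SF3B became 0.0043 with median scaling and 0.025 without joined loci, and that of the SNRP loci became 0.081 with median scaling and 0.016 with quantile normalization. The sign held in every alternative that gave a value for 14 members and changed in at least 1 for 28. With another filter, the block, no trend or no joined loci the sign could not change, so these alternatives do not test it. Median scaling turned SF3B1 to 0.054 and SRSF1 to 0.019. Leaving out single libraries gave log2 fold changes from -0.00051 to 0.18 for SF3A3, -0.066 to 0.30 for SNRPN, -0.10 to 0.44 for SNRPF, -0.55 to 0.060 for SNRPD2, -0.30 to 0.033 for SRSF1, -0.78 to 0.075 for SRSF5, -0.44 to 0.10 for HNRNPH2 and -0.13 to 0.40 for HNRNPAB. The cause of these changes was not tested.

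Whether samples with the same number share more than that number cannot be told from the labels. The correlations of their deviations from the group means over all tested loci were -0.11, -0.17 and -0.23. These lay below those of all pairs with unlike numbers, which ran from -0.0068 to 0.16, so no library correlated best with its own number. Deviations from a group mean cancel within the group at each locus, so low values for some pairs raise those of others. The contrast is fixed in part by this. The cause of this pattern was not tested. With replicate number as a block, 225 loci were higher and 371 lower by the limits. An adjusted p under 0.05 was found at 5 in place of 19 loci (limma). Members past the limits were 0, which was fixed, since the block leaves each fold change as in the main fit. There are 3 libraries a group and no known depth. The intervals rest on the spread between replicates, which limma moderates toward a mean-variance trend over all tested loci. They give the changes that the data leave possible for each member, not a limit of detection.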
